A study of Homo sapiens with 8 samples.

Results

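The 10 genes described here form the core of the NRF2 antioxidant response: NFE2L2, KEAP1, NQO1, GCLC, GCLM, TXNRD1, HMOX1, SRXN1, SOD2 and GPX2. They were represented by every probe set (a group of short probes giving 1 signal) that the platform annotation gives exactly 1 of these symbols. That gave 20 of the 54675 probe sets on the array, for 10 of the 19775 genes that have such a probe set. Signals were measured in 2 colon cancer cell lines, DKS-5, labelled K-ras mutant, and DKO-3, labelled K-ras knockout (wild-type). Each line was measured after 12 h at 1% O2 (hypoxia) and at 21% O2 (normoxia), with 2 arrays in each of the 4 groups: DKS-5 hypoxia, DKS-5 normoxia, DKO-3 hypoxia and DKO-3 normoxia. Both lines are known as clones derived from the colon cancer line DLD-1, DKO-3 by targeted disruption of its mutant K-ras allele, so each genotype is 1 clone and genotype and clone cannot be told apart. The level of K-ras is not analysed here. The labels do not say whether the arrays of a group came from separate cultures. The p-values therefore speak only to how far these samples vary, and that variation may be technical.

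NFE2L2 encodes NRF2, the transcription factor that switches on enzymes against oxidants and reactive chemicals. In unstressed cells the adaptor protein KEAP1 hands NRF2 to a ubiquitin ligase for destruction, and oxidants that modify cysteines of KEAP1 let NRF2 accumulate, pair with small MAF proteins and bind antioxidant response elements near its targets. NRF2 is thus controlled largely as a protein, so its transcript need not follow its activity. NQO1, GCLC, GCLM, TXNRD1, HMOX1, SRXN1 and GPX2 are known targets in human cells, and SOD2 is also known as a target of NF-kappaB.

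NRF2 reads its targets through a short DNA element, and the stretches upstream of 4 of the genes are shown because NQO1 had the clearest difference between the lines and the other 3 hold the strict form of the element. Each is the 250 bases before the gene's start in RefSeq (build GRCh38.p14), 5′ to 3′ on the gene's own strand, with matches to the strict element core (TGACNNNGC on either strand) in capitals.
NQO1, chr16:69726561-69726810, minus strand: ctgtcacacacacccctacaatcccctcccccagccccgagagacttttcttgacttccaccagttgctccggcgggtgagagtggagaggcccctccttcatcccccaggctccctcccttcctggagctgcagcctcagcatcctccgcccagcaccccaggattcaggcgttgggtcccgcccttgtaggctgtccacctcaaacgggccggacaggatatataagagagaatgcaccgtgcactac
GCLM, chr1:93909431-93909680, minus strand: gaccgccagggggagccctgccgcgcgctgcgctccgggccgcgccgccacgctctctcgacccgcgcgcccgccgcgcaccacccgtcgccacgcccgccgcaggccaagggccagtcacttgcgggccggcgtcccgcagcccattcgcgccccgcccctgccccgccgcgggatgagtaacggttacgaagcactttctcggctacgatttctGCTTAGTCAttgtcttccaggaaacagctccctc
TXNRD1, chr12:104215529-104215778, plus strand: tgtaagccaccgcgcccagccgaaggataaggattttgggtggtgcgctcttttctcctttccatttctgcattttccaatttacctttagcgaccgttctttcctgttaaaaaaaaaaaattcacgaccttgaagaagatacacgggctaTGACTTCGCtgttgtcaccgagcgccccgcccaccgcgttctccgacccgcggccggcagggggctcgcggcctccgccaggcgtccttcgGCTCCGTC
GPX2, chr14:64942746-64942995, minus strand: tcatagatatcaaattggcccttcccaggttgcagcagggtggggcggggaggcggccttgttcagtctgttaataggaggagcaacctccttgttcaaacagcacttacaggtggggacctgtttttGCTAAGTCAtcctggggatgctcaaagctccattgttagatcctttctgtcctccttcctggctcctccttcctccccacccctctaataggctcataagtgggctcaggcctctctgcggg
A promoter was in the RefSeq table for 9 of the 10 genes, HMOX1 being the other, and motifs were searched on both strands from 250 bases before to 50 after the start. The strict core was in 3 of the 9 promoters, against 13.6% of 27305 promoters of the same length. In GCLM the match began at position -34 from the start, and in GPX2 at -122. TXNRD1 held 2 matches, at -99 and at -8, the second of which runs past the start and so past the end of the printed stretch. The broader core TGANNNNGC, which contains the strict one, was in 6 of the 9, against 42.1% of all promoters. Of the 2 cores bound by hypoxia-inducible factors, ACGTG was in 0 of the 9 (21.6% of all promoters) and GCGTG in 5 of the 9 (36.3%). NQO1 had a match to the broader core only, at -119. These matches describe the letters in the window only, and elements further from a gene's start were not searched for. A stretch without capitals therefore does not mean that the gene lacks an element.

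The clearest difference among the 10 genes lay between the lines: NQO1 was higher in DKS-5 than in DKO-3 over both oxygen levels together. None of the 10 passed the threshold for hypoxia. Array signals were scaled to a common trimmed mean, and differences are log2 differences of (signal + 16) with their SE. The threshold was an adjusted p below 0.05 (limma, Benjamini-Hochberg over the 12736 genes above a filter on dim probe sets). The plot of signals by array shows each gene's probe set with the highest mean.

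**Figure D1:**
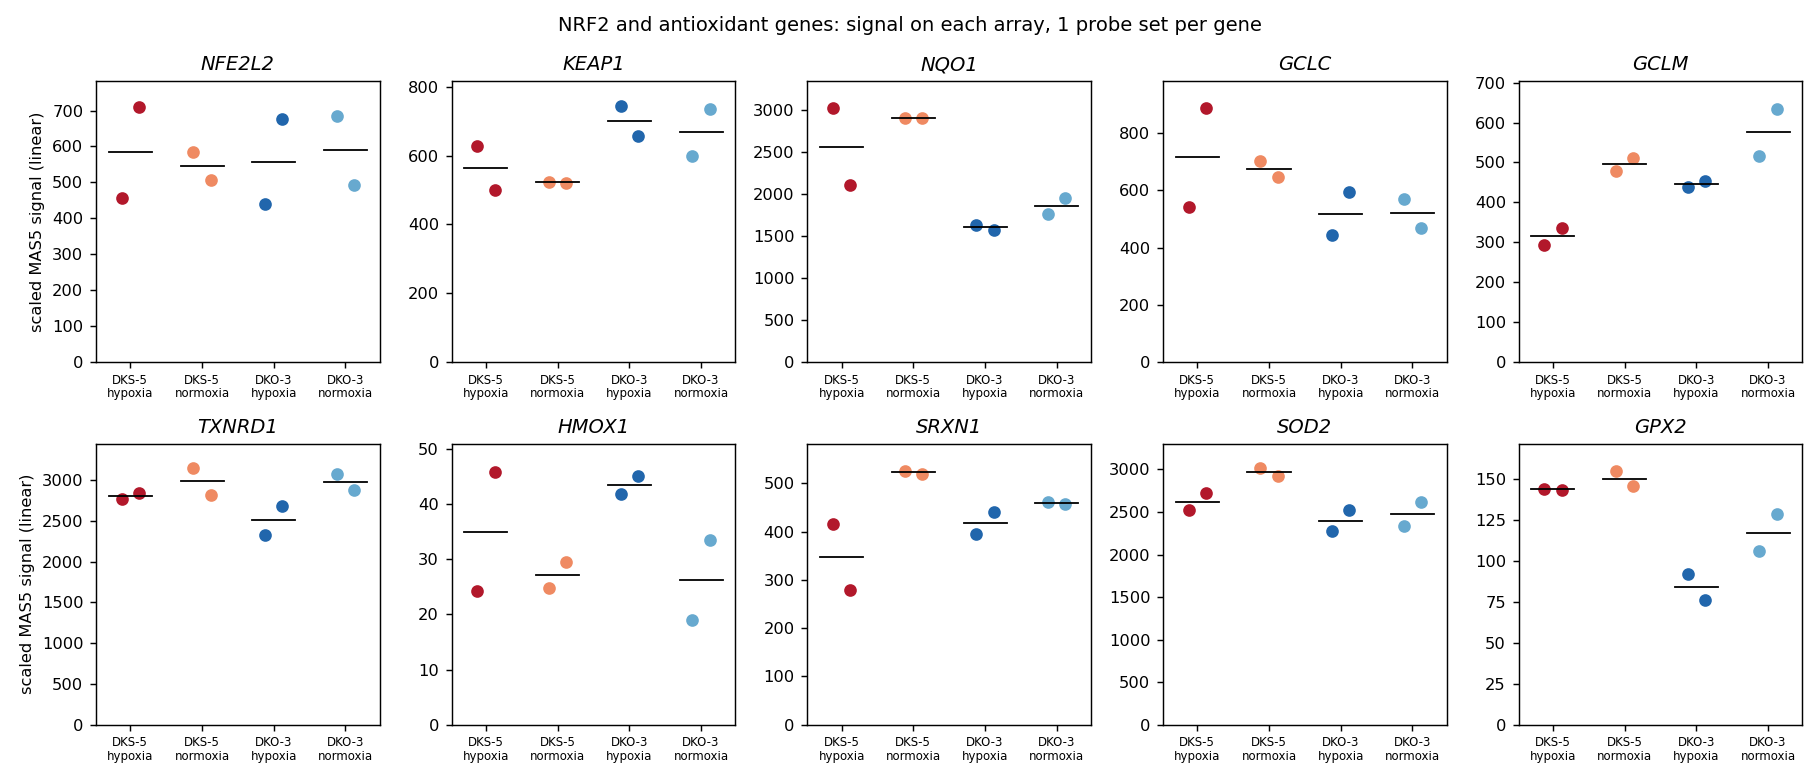
Scaled signal (linear axis from 0) of 1 probe set for each of the 10 genes on every array, a dot per array and a line at the mean of the 2 arrays, with the groups DKS-5 hypoxia, DKS-5 normoxia, DKO-3 hypoxia and DKO-3 normoxia from left to right. NQO1 lay between 2106 and 3027 on the 4 DKS-5 arrays and between 1575 and 1953 on the 4 DKO-3 arrays, while the NFE2L2 groups overlapped.

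The oxygen labels were checked with NDRG1, a well-known hypoxia gene, whose scaled signal was 1995 and 2095 in DKS-5 hypoxia against 132 and 127 in DKS-5 normoxia, and 2006 and 1930 in DKO-3 hypoxia against 413 and 341 in DKO-3 normoxia. BNIP3L, EGLN3 and BHLHE40 were also higher on both hypoxia arrays than on both normoxia arrays of each line. Of 13 colon epithelial markers 10 were above the filter, while CDX1, LGALS4 and GPA33 were below it, and 2 markers separated the lines widely in opposite directions. KRT20 was at 6.19 to 15.5 on the DKS-5 arrays and 301 to 445 on the DKO-3 arrays, and VIL1 was at 54.7 to 103 on the DKS-5 arrays and 12.8 to 17.5 on the DKO-3 arrays. Of 14 markers of other cell types with a probe set, 2 were above the filter (COL1A1 and HBB). The summed signal of those 14 was 119 and 149 in DKS-5 hypoxia, 104 and 125 in DKS-5 normoxia, 137 and 128 in DKO-3 hypoxia, and 135 and 69.5 in DKO-3 normoxia. The ratio of 3′ to 5′ signal of the ACTB control probe sets, a sign of RNA integrity and amplification, was 54.8 and 25.6 in DKS-5 hypoxia, 55.1 and 34.3 in DKS-5 normoxia, 11.5 and 11.0 in DKO-3 hypoxia, and 49.0 and 14.9 in DKO-3 normoxia. The DKS-5 hypoxia arrays stood furthest apart: the median SD of log2 values was 0.299 over the 10 genes and 0.212 over all genes tested, and in the other groups it was 0.0619 to 0.184 over the 10 genes.

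On its brightest probe set, 201146_at, the transcript of NRF2 itself had the narrowest range of group means of the 10, although a dimmer probe set varied more. NFE2L2 had scaled signals of 457 and 711 in DKS-5 hypoxia, 584 and 507 in DKS-5 normoxia, 439 and 678 in DKO-3 hypoxia, and 686 and 493 in DKO-3 normoxia. The arrays of every group overlapped those of the others, and the 4 group means spanned 0.09 on the log2 scale. For hypoxia the log2 difference of NFE2L2 was 0.07 ± 0.27 in DKS-5 (95% interval -0.51 to 0.65) and -0.09 ± 0.27 in DKO-3 (-0.67 to 0.49). Between DKS-5 and DKO-3 over both oxygen levels it was -0.02 ± 0.19 (adjusted p = 0.976, limma). As in any bulk sample, less RNA per cell and fewer cells of a kind cannot be told apart in these values.

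The other NFE2L2 probe sets were dimmer. NFE2L2 1567015_at had 60.5 and 134 in DKS-5 hypoxia, 139 and 126 in DKS-5 normoxia, 88.4 and 93.3 in DKO-3 hypoxia, and 59.2 and 69.7 in DKO-3 normoxia. In normoxia both DKS-5 arrays lay above both DKO-3 arrays, with a log2 difference of 0.89 ± 0.30 that did not pass over the probe sets above the filter (adjusted p = 0.215, limma). NFE2L2 1567013_at stayed between 27.2 and 54.8 on all arrays, and in DKO-3 both hypoxia arrays lay above both normoxia arrays on this probe set (0.33 ± 0.28) and on 1567015_at (0.41 ± 0.30), without passing (adjusted p = 0.767 and 0.722). In DKS-5 the oxygen groups overlapped on both probe sets. A further probe set is shared with CSNK2A1 and was left out by the rule.

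KEAP1, the repressor of NRF2, had scaled signals of 630 and 499 in DKS-5 hypoxia against 745 and 656 in DKO-3 hypoxia, and of 525 and 522 in DKS-5 normoxia against 601 and 737 in DKO-3 normoxia. Both DKS-5 arrays lay below both DKO-3 arrays at each oxygen level, although the 2 lines overlapped when all 4 arrays of each were pooled. Between the lines KEAP1 differed by a log2 value of -0.31 ± 0.22 in hypoxia, -0.34 ± 0.22 in normoxia and -0.32 ± 0.15 over both (adjusted p = 0.229, limma), so it did not pass. Without the scaling of arrays the pooled value was -0.55 (adjusted p = 0.0363), with the median of all genes at -0.206. For hypoxia KEAP1 differed by 0.10 ± 0.22 in DKS-5 and 0.07 ± 0.22 in DKO-3, with overlapping arrays in both.

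NQO1 is a quinone reductase that spares cells from redox cycling and is a widely used readout of NRF2 activity. Its scaled signals were 3027 and 2106 in DKS-5 hypoxia against 1633 and 1575 in DKO-3 hypoxia, and 2911 and 2912 in DKS-5 normoxia against 1766 and 1953 in DKO-3 normoxia. All 4 DKS-5 arrays lay above all 4 DKO-3 arrays. Over both oxygen levels NQO1 was 1.57-fold higher in DKS-5, a log2 difference of 0.65 ± 0.13 (95% interval 0.37 to 0.93, 4 arrays per line, adjusted p = 0.0049, limma). NQO1 was the 1 gene of the 10 called between the lines, where 9.12% of all genes tested were called in either direction and 2.98% of all genes were called higher in DKS-5. NQO1 and GPX2 were the 2 of the 10 whose DKS-5 arrays all lay above the DKO-3 arrays, against 5.43% of all genes.

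On 210519_s_at, the brightest NQO1 probe set, the difference between the lines was 0.65 ± 0.19 in hypoxia (adjusted p = 0.0609) and 0.64 ± 0.19 in normoxia (adjusted p = 0.0875), each with 2 arrays per group and neither past the threshold with limma. The hypoxia value of NQO1 was 0.39 without DKS-5 hypoxia array 1 and 0.91 without DKS-5 hypoxia array 2, where it passed (adjusted p = 0.00671). In these single comparisons 0 of the 10 genes were called in hypoxia, where 4.38% of all genes were, and 0 in normoxia, where 2.54% were. At an unadjusted p below 0.05, 3 of the 10 differed between the lines in hypoxia (NQO1, GCLM and GPX2; 18.4% of all genes) and 1 in normoxia (NQO1; 11.4%).

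The other NQO1 probe sets showed the same order. NQO1 201467_s_at had 1079 and 722 in DKS-5 hypoxia against 565 and 556 in DKO-3 hypoxia, and 1199 and 1169 in DKS-5 normoxia against 557 and 634 in DKO-3 normoxia. NQO1 201468_s_at had 733 and 445 in DKS-5 hypoxia against 425 and 292 in DKO-3 hypoxia, and 678 and 903 in DKS-5 normoxia against 381 and 374 in DKO-3 normoxia. On each of the 3 probe sets every DKS-5 array lay above every DKO-3 array. The pooled log2 differences were 0.81 ± 0.16 for 201467_s_at and 0.85 ± 0.19 for 201468_s_at (adjusted p = 0.00451 and 0.0121 over the probe sets above the filter, limma). Over all probe sets without a filter, 201468_s_at no longer passed (adjusted p = 0.0552), whereas NQO1 201467_s_at did (adjusted p = 0.0214). By oxygen level, NQO1 201467_s_at differed by 0.64 ± 0.22 in hypoxia and by 0.98 ± 0.22 in normoxia, the second past the threshold over the probe sets above the filter (adjusted p = 0.0358) and not without it (adjusted p = 0.108). NQO1 201468_s_at differed by 0.67 ± 0.27 in hypoxia and by 1.02 ± 0.27 in normoxia, neither past the threshold. The difference of the hypoxia responses was not called for any of the 3 (adjusted p = 1).

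The ACTB 3′ to 5′ ratio was 25.6 to 55.1 on the DKS-5 arrays and 11.0 to 49.0 on the DKO-3 arrays. With that ratio as a covariate the pooled NQO1 difference was 0.56 and no longer passed (adjusted p = 0.17). It passed in the other 15 of 16 alternatives, the lowest value being 0.42, and over the 16 the adjusted p ran from 0.000255 to 0.17. The part of RNA quality in the difference was not tested beyond this. For hypoxia NQO1 differed by -0.20 ± 0.19 in DKS-5 and by -0.21 ± 0.19 in DKO-3, neither past the threshold (adjusted p = 0.892 and 0.73).

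**Figure D2:**
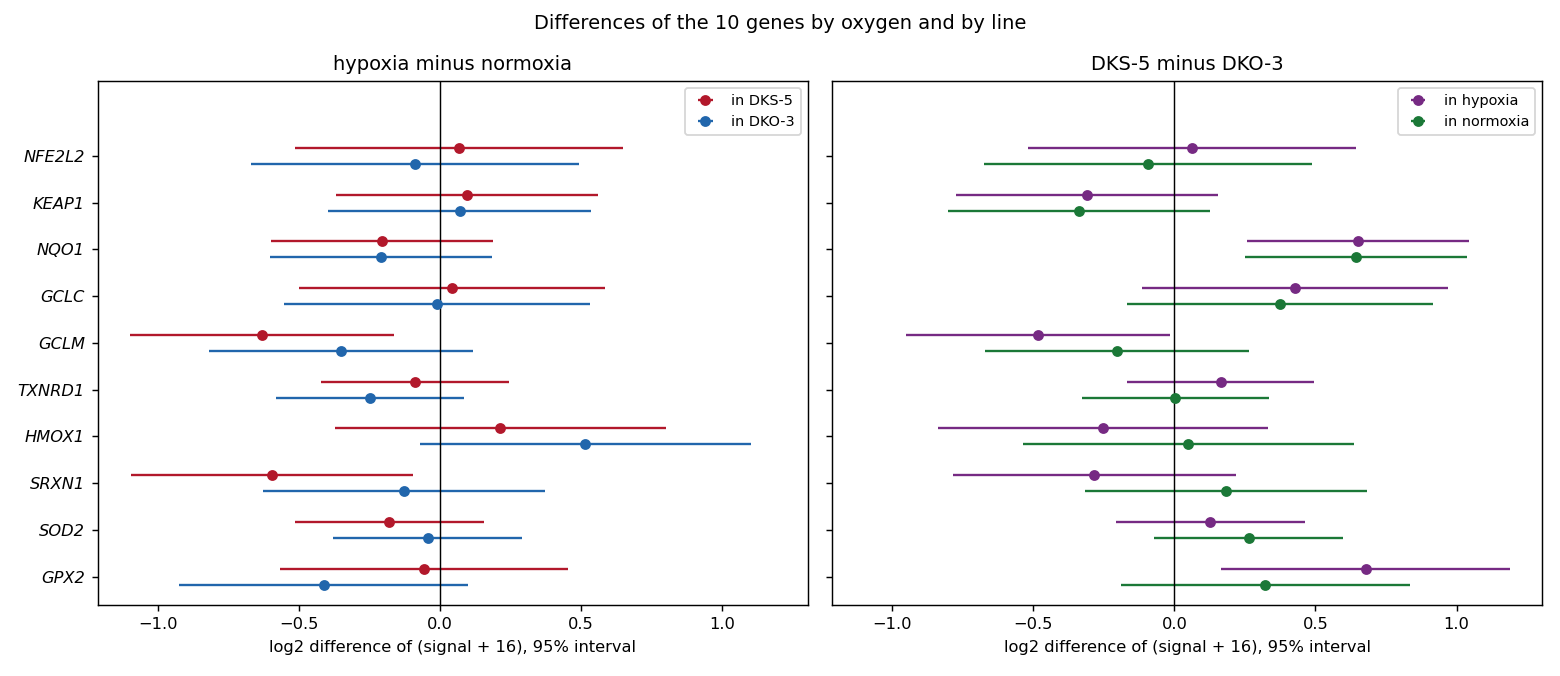
Log2 differences of (signal + 16) for the 10 genes, hypoxia minus normoxia in each line (left) and DKS-5 minus DKO-3 at each oxygen level (right), with dots for the estimates and bars for 95% intervals from limma. The NQO1 intervals for the line difference lie above 0 at both oxygen levels, from 0.26 in hypoxia and from 0.25 in normoxia, while most other intervals include 0.

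GCLC and GCLM encode the catalytic and the modifier subunit of glutamate-cysteine ligase, which makes the first bond of glutathione. GCLM had scaled signals of 293 and 336 in DKS-5 hypoxia against 479 and 512 in DKS-5 normoxia, and of 439 and 453 in DKO-3 hypoxia against 517 and 635 in DKO-3 normoxia. All 4 hypoxia arrays lay below all 4 normoxia arrays. The log2 difference of GCLM for hypoxia was -0.63 ± 0.22 in DKS-5 (adjusted p = 0.542), -0.35 ± 0.22 in DKO-3 (adjusted p = 0.606) and -0.49 ± 0.16 over both lines (adjusted p = 0.168, limma), none past the threshold.

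The other GCLM probe sets had pooled hypoxia differences of -0.41 ± 0.18 (234986_at) and -0.26 ± 0.17 (203925_at). With the lines pooled, the oxygen groups overlapped on both. Within DKS-5 both hypoxia arrays lay below both normoxia arrays on each of them. Within DKO-3 this was so on 203925_at, and the groups overlapped on 234986_at. No hypoxia difference of either probe set passed the threshold. Between the lines the GCLM probe sets disagreed: the pooled difference of DKS-5 and DKO-3 was -0.34 ± 0.16 for 236140_at, 0.35 ± 0.18 for 234986_at and -0.38 ± 0.17 for 203925_at, none past the threshold. The cause of this disagreement was not tested.

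GCLC had scaled signals of 543 and 888 in DKS-5 hypoxia against 443 and 594 in DKO-3 hypoxia, and of 704 and 646 in DKS-5 normoxia against 571 and 469 in DKO-3 normoxia. The lines overlapped in hypoxia and did not overlap in normoxia. The pooled log2 difference of GCLC between the lines was 0.40 ± 0.18 (adjusted p = 0.202, limma), and without DKS-5 hypoxia array 1 it was 0.57 (adjusted p = 0.0362). GCLC 202922_at gave 0.50 ± 0.18 with no overlap of the lines (adjusted p = 0.115).

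The dim GCLC 1555330_at ran the other way, with 43.5 and 50.8 in DKS-5 hypoxia against 112 and 77.8 in DKO-3 hypoxia, and 41.1 and 45.8 in DKS-5 normoxia against 80.1 and 86.2 in DKO-3 normoxia. All 4 DKS-5 arrays lay below all 4 DKO-3 arrays. Its log2 difference was -0.77 ± 0.18, past the threshold over the probe sets above the filter (adjusted p = 0.0151, limma) and not over all probe sets without a filter (adjusted p = 0.0604). For hypoxia GCLC 202923_s_at differed by 0.04 ± 0.25 in DKS-5 and by -0.01 ± 0.25 in DKO-3.

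**Figure D3:**
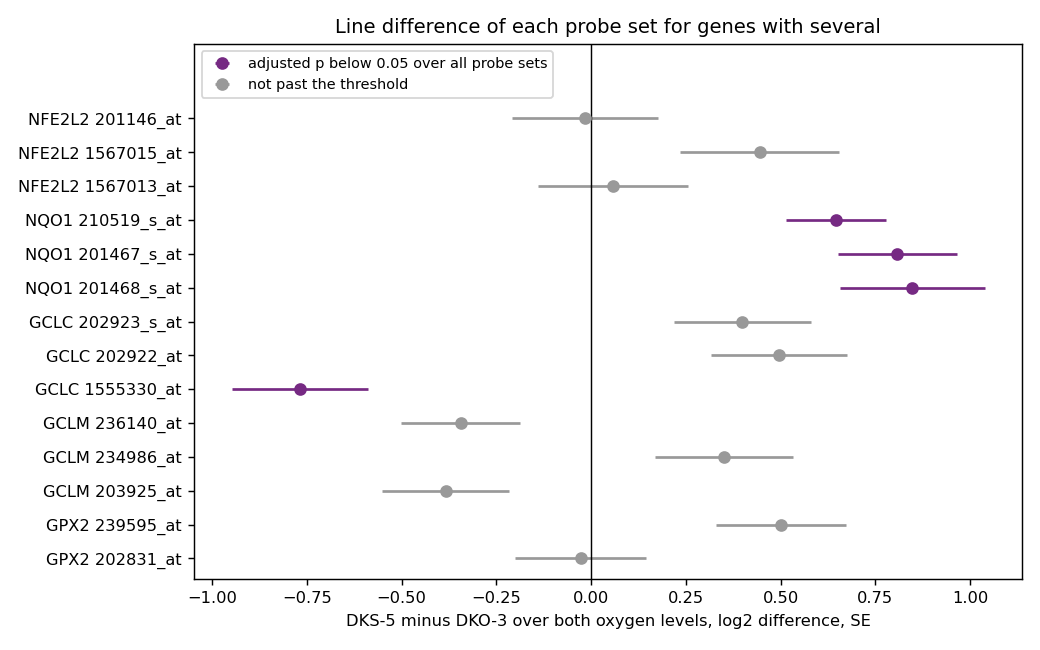
Log2 difference of DKS-5 minus DKO-3 over both oxygen levels for each probe set above the filter of the genes with several, dots for estimates and bars for SE, in purple where the adjusted p over all probe sets above the filter was below 0.05. The 3 NQO1 probe sets lie at 0.65 to 0.85, whereas GCLC 1555330_at lies at -0.77 and the other GCLC probe sets at 0.40 and 0.50.

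TXNRD1 encodes the cytosolic reductase that recharges thioredoxin with NADPH. Its scaled signals were 2769 and 2843 in DKS-5 hypoxia against 3153 and 2824 in DKS-5 normoxia, and 2329 and 2689 in DKO-3 hypoxia against 3080 and 2876 in DKO-3 normoxia. The oxygen groups overlapped in DKS-5, and in DKO-3 both hypoxia arrays lay below both normoxia arrays. For hypoxia the log2 difference of TXNRD1 was -0.09 ± 0.16 in DKS-5 and -0.25 ± 0.16 in DKO-3, neither past the threshold (adjusted p = 0.949 and 0.606, limma). Between the lines it was 0.08 ± 0.11 over both oxygen levels. A second TXNRD1 probe set, 1561080_at, was below the filter, at 0.774 to 7.20.

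SRXN1, sulfiredoxin, repairs overoxidised peroxiredoxins. It had scaled signals of 416 and 278 in DKS-5 hypoxia against 527 and 519 in DKS-5 normoxia, and of 396 and 442 in DKO-3 hypoxia against 461 and 457 in DKO-3 normoxia. Every hypoxia array lay below every normoxia array. The log2 difference of SRXN1 was -0.60 ± 0.24 in DKS-5 (adjusted p = 0.622), -0.13 ± 0.24 in DKO-3 (adjusted p = 0.894) and -0.36 ± 0.17 over both lines (adjusted p = 0.337, limma). The DKS-5 value of SRXN1 was -0.87 without DKS-5 hypoxia array 1 and -0.32 without DKS-5 hypoxia array 2. None of these passed, and the difference of the responses, DKS-5 minus DKO-3, was -0.47 ± 0.33 (adjusted p = 1).

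HMOX1, the inducible heme oxygenase, was dim in this system. Its scaled signals were 24.3 and 45.9 in DKS-5 hypoxia against 24.8 and 29.5 in DKS-5 normoxia, and 41.9 and 45.1 in DKO-3 hypoxia against 19.0 and 33.6 in DKO-3 normoxia. The groups overlapped in DKS-5, where the hypoxia arrays were far apart, and did not overlap in DKO-3. HMOX1 differed for hypoxia by a log2 value of 0.21 ± 0.28 in DKS-5 (adjusted p = 0.932) and 0.52 ± 0.28 in DKO-3 (adjusted p = 0.533, limma). These values lie close to the filter of 13.8, and a log2 difference with 16 added understates changes at such levels.

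SOD2, the manganese superoxide dismutase of mitochondria, had 2519 and 2726 in DKS-5 hypoxia against 3021 and 2919 in DKS-5 normoxia, and 2274 and 2526 in DKO-3 hypoxia against 2335 and 2618 in DKO-3 normoxia. Its groups did not overlap in DKS-5 and overlapped in DKO-3. The log2 difference of SOD2 for hypoxia was -0.18 ± 0.16 in DKS-5 and -0.04 ± 0.16 in DKO-3, and between the lines it was 0.20 ± 0.11 over both oxygen levels (adjusted p = 0.331, limma). This rests on SOD2 1566342_at alone, since 4 further probe sets are annotated to SOD2 and SOD2-OT1 together and were left out by the rule.

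GPX2 encodes the glutathione peroxidase of the gut epithelium. Its scaled signals were 144 and 143 in DKS-5 hypoxia against 92.1 and 75.8 in DKO-3 hypoxia, and 155 and 145 in DKS-5 normoxia against 106 and 128 in DKO-3 normoxia. All 4 DKS-5 arrays lay above all 4 DKO-3 arrays. The log2 difference of GPX2 between the lines was 0.68 ± 0.24 in hypoxia (adjusted p = 0.137), 0.32 ± 0.24 in normoxia (adjusted p = 0.743) and 0.50 ± 0.17 over both (adjusted p = 0.085, limma), none past the threshold. With quantile normalization the pooled value was 0.57 (adjusted p = 0.0426). The dimmer GPX2 202831_at, at 9.68 to 18.6, gave -0.03 ± 0.17. For hypoxia GPX2 differed by -0.06 ± 0.24 in DKS-5 and by -0.41 ± 0.24 in DKO-3.

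Across the 10 genes, 0 were called for hypoxia in DKS-5, 0 in DKO-3 and 0 over both lines, where 0.503%, 0.345% and 1.19% of all genes tested were called. At an unadjusted p below 0.05, GCLM and SRXN1 were lower in hypoxia in DKS-5 and over both lines, 2 of the 10 each time, against 2.47% and 4.59% of all genes lower at that p, and 0 of the 10 passed it in DKO-3 (10.5% of all genes in either direction). The median log2 difference of the 10 for hypoxia was -0.0726 in DKS-5 and -0.109 in DKO-3, against 0.0214 and 0.035 over all genes tested. Without the scaling of arrays the median of all genes was -0.195 in DKS-5 and 0.202 in DKO-3, so small differences for hypoxia depend on that step. Hypoxia arrays lay below normoxia arrays without overlap for 4 of the 10 in DKS-5 and 5 of the 10 in DKO-3, where 15.8% and 17.1% of all genes did. They did so over both lines for 2 of the 10, GCLM and SRXN1, against 2.14% of all genes. The difference of the hypoxia responses between the lines was called for 0 of the 10 and for 0% of all genes (limma). At an unadjusted p below 0.05 it was again 0 of the 10, against 2.63% of all genes.

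On the brightest probe set of each gene, NQO1 had the widest range of group means among the 10, 0.85 on the log2 scale, followed by GCLM with 0.84, GPX2 with 0.74 and SRXN1 with 0.60. HMOX1, GCLC, KEAP1, SOD2 and TXNRD1 ranged from 0.52 to 0.25. This order depends on the probe set, since the group means of NFE2L2 1567015_at ran from 6.33 to 7.21. The genes whose pattern over the 8 arrays was most like NQO1 were FXR1, ZNF232 and KLRG1, with root mean square differences of centred log2 values of 0.101, 0.116 and 0.132. FXR1 had 3059 and 2631 in DKS-5 hypoxia, 3150 and 3024 in DKS-5 normoxia, 1663 and 1641 in DKO-3 hypoxia, and 1857 and 1892 in DKO-3 normoxia. KLRG1 was dim, at 13.8 to 27.8 on the DKS-5 arrays and 6.95 to 14.2 on the DKO-3 arrays, close to the filter of 13.8. It passed the filter mainly through its DKS-5 signals, so its direction is not independent of the filter and nothing is concluded from it.

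Around the 10 genes, 93 others of the NRF2 and redox pathway were examined in 7 lists, of which 86 were tested. For hypoxia over both lines 2 of the 86 rose, 2.33% against 1.19% of all genes, and none fell. MAFF, a small MAF protein that pairs with NRF2, had 261 and 320 in DKS-5 hypoxia against 120 and 155 in DKS-5 normoxia, and 290 and 268 in DKO-3 hypoxia against 147 and 187 in DKO-3 normoxia. Every hypoxia array of MAFF lay above every normoxia array. It was 1.80-fold higher, a log2 difference of 0.85 ± 0.17 (adjusted p = 0.023, limma), and it was the 1 of 12 NRF2 partners and regulators that passed. The call was lost in 8 of 16 alternatives (adjusted p 0.00698 to 0.249), among them 5 in which 1 array was left out: DKS-5 hypoxia 2, DKS-5 normoxia 1, either DKO-3 hypoxia array or DKO-3 normoxia 1. The other MAFF probe set gave 0.59 and did not pass (adjusted p = 0.201).

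TXNIP, which binds and inhibits thioredoxin, was the other. Its scaled signals were 311 and 436 in DKS-5 hypoxia against 208 and 194 in DKS-5 normoxia, and 681 and 795 in DKO-3 hypoxia against 397 and 346 in DKO-3 normoxia. Hypoxia arrays lay above normoxia arrays within each line. The log2 difference of TXNIP was 0.89 ± 0.17 (adjusted p = 0.0111, limma), and it was lost in 5 of 16 alternatives: the ACTB covariate and leaving out either DKS-5 normoxia or either DKO-3 hypoxia array. In glutathione synthesis and use 0 of 20 genes were called. SLC7A11, the cystine importer, averaged 662 ± 158 in DKS-5 hypoxia and 1022 ± 145 in DKS-5 normoxia, and 678 ± 197 in DKO-3 hypoxia and 1177 ± 157 in DKO-3 normoxia (SD, n = 2 each; log2 difference -0.72 ± 0.17, adjusted p = 0.0623, limma). GSTP1, a glutathione transferase, differed by 0.70 ± 0.17 (adjusted p = 0.0662). In the heme and iron list 0 of 7 passed, and 0 of 6 in superoxide and peroxide removal, 0 of 11 in NADPH supply and 0 of 16 in detoxification and export. The heme and iron list had the highest median of the lists, 0.341, the others lying between -0.0287 and 0.106, against 0.0282 over all genes.

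Between the lines over both oxygen levels 10 of the 86 passed, 2 higher and 8 lower in DKS-5, or 11.6% against 9.12% of all genes. SESN3, a sestrin of the stress response, was 1 of the 2 that were higher, with 615 and 623 in DKS-5 hypoxia against 134 and 123 in DKO-3 hypoxia, and 505 and 610 in DKS-5 normoxia against 136 and 114 in DKO-3 normoxia. It was 4.22-fold higher, a log2 difference of 2.08 ± 0.16 (adjusted p = 8.36e-07, limma), and passed in all 16 alternatives. MGST1, a membrane-bound glutathione transferase, had 242 and 149 in DKS-5 hypoxia against 668 and 704 in DKO-3 hypoxia, and 226 and 352 in DKS-5 normoxia against 824 and 841 in DKO-3 normoxia. Its log2 difference was -1.64 ± 0.19 (adjusted p = 3.55e-05, limma) and also passed in all 16. For both genes the 2 lines did not overlap.

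The calls of the other genes named, apart from ABCC2, were each lost under at least 1 of the 16 alternatives. TXNIP differed by -0.90 ± 0.17 (adjusted p = 0.00261) and the glucuronosyltransferase UGT1A6 by -1.07 ± 0.19 (adjusted p = 0.00222), each lost with the ACTB covariate alone (adjusted p = 0.0805 and 0.0787, limma). At each oxygen level the DKS-5 arrays of both genes lay below the DKO-3 arrays. The UGT1A6 probe set can also match other UGT1A transcripts, which share exons. GSTK1, a glutathione transferase of mitochondria and peroxisomes, differed by -0.70 ± 0.17 (adjusted p = 0.0165) and was lost in 4 of 16. AKR1C1 and AKR1C2, near-identical aldo-keto reductases whose probe sets may share signal, differed by -0.86 ± 0.18 and -1.02 ± 0.23 (adjusted p = 0.0072 and 0.00932), each lost in 3 of 16. No other probe set of either gene passed, with values of -0.62 to -0.01 for AKR1C1 and of -0.68 and -0.26 for AKR1C2. NNT, which makes NADPH in mitochondria, differed by -0.54 ± 0.16 (adjusted p = 0.045) and was lost in 12 of 16. Its other probe sets disagreed in sign, at -0.36, 0.22 and -0.23, and none passed. ALDH3A2, a fatty aldehyde dehydrogenase, was higher in DKS-5 by 0.58 ± 0.15 (adjusted p = 0.0201) and was lost in 7 of 16. The call rests on 1 of 3 ALDH3A2 probe sets, the others being at 0.21 and -0.03 (adjusted p = 0.432 and 0.959). The export pump ABCC2 was also lower in DKS-5 by a log2 difference of -0.63 ± 0.17 (adjusted p = 0.0327, limma), at 4.23 to 13.1 on the DKS-5 arrays and 18.2 to 27.3 on the DKO-3 arrays, so that all its DKS-5 signals lay below the filter of 13.8. ABCC2 thus passed the filter only through its DKO-3 signals, so its direction is not independent of the filter and nothing is concluded from it. It is named after its values were seen, it counts among the lower genes of its list, and its call was not run under the alternatives.

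By list, the calls between the lines were 0 of 12 among NRF2 partners and regulators, 2 lower of 20 in glutathione synthesis and use, 1 higher and 1 lower of 14 in the thioredoxin and peroxiredoxin system, 0 of 6 in superoxide and peroxide removal, 1 lower of 11 in NADPH supply, 1 higher and 4 lower of 16 in detoxification and export, and 0 of 7 in heme and iron handling. AKR1C1, AKR1C2 and UGT1A6 are themselves described as NRF2 targets in human cells, and they were lower in DKS-5 where NQO1 was higher. In the detoxification list 3 of 16 genes were higher in DKS-5 and 7 lower at an unadjusted p below 0.05 (limma). Over all genes tested, 9.2% were higher and 13.3% lower at that p. The 7 include ABCC2. OSGIN1 of the detoxification list was at 26.1 to 40.1 on the DKS-5 arrays and 16.1 to 23.5 on the DKO-3 arrays. OSGIN1 did not pass the threshold and is named outside the naming rules, so nothing is concluded from it. Of the core targets, on the brightest probe set of each, GPX2, GCLC and TXNRD1 differed by 0.50, 0.40 and 0.08. GCLM, HMOX1 and SRXN1 differed by -0.34, -0.10 and -0.05, and none of these genes passed on that probe set. Their other probe sets above the filter were at 0.50 and -0.77 for GCLC, 0.35 and -0.38 for GCLM and -0.03 for GPX2. Of these only GCLC 1555330_at, at -0.77, passed over the probe sets above the filter (adjusted p = 0.0151, limma). Whether NRF2 activity differed between the lines was not tested.

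**Figure D4:**
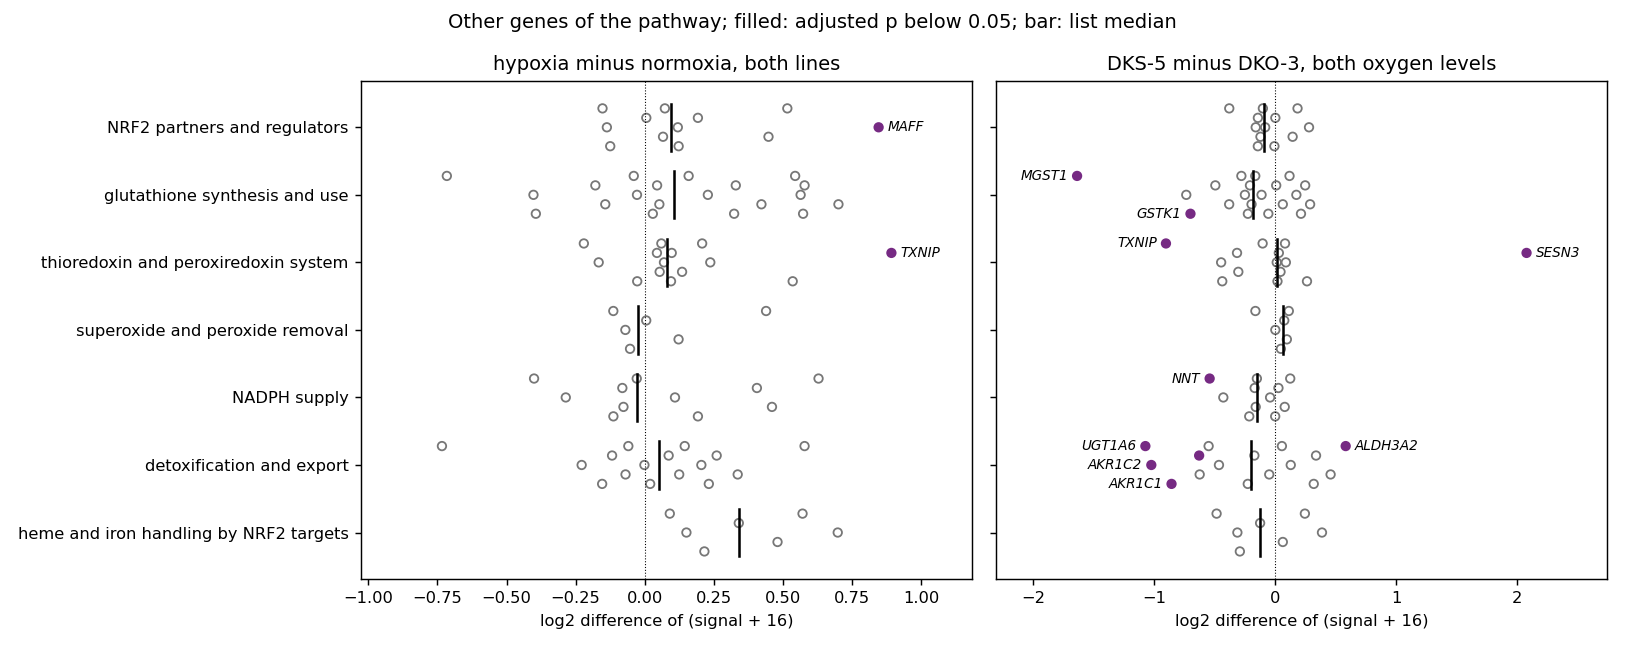
Log2 differences of (signal + 16) for the 86 tested pathway genes by list, hypoxia minus normoxia over both lines (left) and DKS-5 minus DKO-3 over both oxygen levels (right), with filled dots for an adjusted p below 0.05 and a bar at each list's median. MAFF and TXNIP are the filled dots on the left, and on the right SESN3 stands at 2.08 and MGST1 at -1.64.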

How the data were processed

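RNA from 8 samples was amplified, biotin-labelled and hybridised to Affymetrix arrays. The deposited values are intensity signals on a linear scale, made by the authors with MAS5 per the submitters' processing notes; its version and scaling target are not given in the sources used here. Because the 2% trimmed means ran from 133.2 to 201.9 (1.52-fold), each array was scaled to their median, 172.9. Log2(signal + 16) was taken, the probe set with the highest mean over all arrays was kept for each gene, and genes were tested where that mean exceeded the 40th percentile over the array (13.8), 12736 in all. Of the 54675 probe sets, 41091 have 1 gene symbol, 1801 several and 62 are controls. Probe sets with several symbols were not named.

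limma 3.58.1 in R 4.3.3 fitted 1 mean per group over all 8 arrays, with eBayes with a trend, two-sided tests and Benjamini-Hochberg adjustment over all genes tested, for 7 comparisons. With 2 arrays per group, 4 residual degrees of freedom remained, and the number of arrays limits the precision. On simulated data with 200 of 12736 genes changed, the fit recovered 40% of 2-fold and 90% of 4-fold changes for hypoxia in DKS-5, and 36% and 90% for DKS-5 against DKO-3 in hypoxia. The simulation gave each gene the same spread in all 4 groups. In the data the median SD over all genes was 0.212 in DKS-5 hypoxia and 0.127 to 0.169 in the other groups. Recovery in comparisons with DKS-5 hypoxia may therefore be lower than simulated.

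All 10 genes are named, with values of all their probe sets. The main probe set was 202417_at for KEAP1, 201266_at for TXNRD1, 203665_at for HMOX1, 225252_at for SRXN1 and 239595_at for GPX2. Of each pathway list, genes past the threshold are named in each comparison (up to 4 with the smallest p), or otherwise up to 2 with the smallest p. Also named are the 4 hypoxia genes of the label check and the 3 genes most like the member with the widest range. ABCC2 and OSGIN1 are named outside these rules. The genes, lists and tests were chosen with earlier results of these data known. Alternatives were no scaling, quantile normalization, a pseudocount of 1, no filter, the mean of all probe sets, each probe set by itself, the sample number as a replicate block, the ACTB 3′ to 5′ ratio as a covariate, only the arrays compared, and leaving out each array.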

Additional observations from a re-analysis of the deposited data

How the results depend on the processing

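No call among the 10 genes for hypoxia, or for the difference of the responses, appeared under any alternative. Between the lines in hypoxia, where none was called, 2 were without scaling (KEAP1 at -0.76 and GCLM at -0.92, with the median of all genes at -0.419) and 1 with the replicate block (NQO1, adjusted p = 0.0475, limma). Over all genes these settings called 2382 and 790, against 558 in the main fit. In normoxia 1 was called, NQO1, with the mean of probe sets, with each probe set tested and with only the arrays compared. There the calls in all were 266 genes, 429 probe sets and 446 genes, against 324 genes in the main fit. Over both oxygen levels the 1 call became 3 without scaling (median of all genes -0.206), 2 with quantile normalization (GPX2 added), 2 with each probe set tested (GCLC added) and 0 with the ACTB covariate. The added GCLC call was the dim 1555330_at, lower in DKS-5 at -0.77. In all, these settings called 1774 genes, 1082 genes, 1855 probe sets and 446 genes, against 1162 genes in the main fit. Leaving out 1 array gave 0 to 1 calls in hypoxia, 0 to 1 in normoxia and 1 to 2 over both. In normoxia NQO1 was called without DKS-5 hypoxia array 1 or 2, in hypoxia without DKS-5 hypoxia array 2.

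Over all genes, counts moved by more than 1.5 times as follows. For hypoxia in DKS-5 the 64 calls became 32 without scaling, 35 without the filter, 42 with the mean of probe sets and 36 with only the arrays compared. For hypoxia in DKO-3 the 44 became 84 without scaling, 7 without the filter, 92 with the replicate block, 14 with the ACTB covariate and 71 with only the arrays compared. Over both lines the 152 became 70 without the filter, 325 with the replicate block and 63 with the covariate. Between the lines in hypoxia the 558 became 2382 without scaling (2.64% higher, against 31.9%), 218 without the filter, 128 with the covariate and 354 with only the arrays compared. In normoxia the 324 became 144 without the filter. Over both oxygen levels the 1162 became 1774 without scaling (7.72% higher, against 32.7%), 773 without the filter and 446 with the covariate. The cause of these shifts was not tested. With the mean of probe sets the share higher in hypoxia between the lines was 19.7%.

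Leaving out 1 array gave 29 to 294 calls for hypoxia in DKS-5, 1 to 69 in DKO-3 and 58 to 764 over both lines, and 135 to 761 between the lines in hypoxia, 119 to 443 in normoxia and 630 to 1517 over both. The highest counts for hypoxia in DKS-5 and over both lines were without DKS-5 hypoxia array 1, where 127 of 294 and 301 of 764 calls were lower. The lowest count in DKO-3, the 58 and the 135 were without DKO-3 hypoxia array 1.

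The replicate numbers are shared by the groups, but same-numbered samples deviated together only weakly (correlations -0.0875 to 0.33), so the numbers were not taken as pairs. With the replicate block NQO1 over both oxygen levels kept its call, with adjusted p = 0.00268. Of the values of single genes under the alternatives, 1370 kept their side of the threshold, 12 gained a call, 73 lost one and none reversed.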
